A study of Mus musculus with 44 samples.

Results

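The tumour necrosis factor (TNF) superfamily was followed here through the brains and livers of mice fed a control diet (CD) or a ketogenic diet (KD). Its members were taken by name: every protein-coding gene called Tnfsf or Tnfrsf followed by a digit in the mouse annotation, together with Tnf, Lta, Ltb, Ltbr, Fas, Fasl, Cd27, Cd40, Cd40lg, Cd70, Relt and Eda2r. The rule gave 43 of the 54446 genes counted, 17 ligands and 26 receptors, and all 43 were found by Ensembl identifier. The rule reads names only and no expression value.

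The ligands of this family are trimeric proteins, mostly anchored in the plasma membrane of immune cells, and some are cut loose by proteases. Their receptors fall into those with a death domain, such as Tnfrsf1a and Fas, which can recruit caspase-8, those that bind TRAF adaptors and lead to NF-kB, and decoys without a signalling tail. In brain the family is known mainly from microglia, astrocytes and neurons, and in liver from Kupffer cells, the resident macrophages, and from hepatocytes, which carry Fas and the TNF receptors.

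RNA of whole brains and livers of male C57BL/6 mice was sequenced in 44 libraries. In 26-month animals the KD had been cycled weekly with the CD since 12 months of age, and tissue was taken in a week of CD feeding, so that both groups were eating the CD when sampled. There were 8 KD and 8 CD livers and 8 KD and 8 CD brains of that age, and 7 KD brains (1 week of KD) and 5 CD brains of 12-month mice. No genotype other than the strain was given, and whole tissue mixes all its cell types, so that fewer cells of a type and less RNA per cell cannot be told apart.

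The libraries held 6879726 to 12744415 counts. Tissue markers matched the labels: summed neuron markers lay between 4441 and 7275 CPM (counts scaled to the size of each library) in brains and at most 46.8 CPM in livers, and hepatocyte markers between 12072 and 34294 CPM in livers and at most 733 CPM in brains. Some libraries stood apart. Gm10800, a predicted gene, took 1.23% to 2.39% of the counts in 6 livers (5 KD and 1 CD) and at most 0.00580% in the other 10, and in brains it took 0.0347% to 0.991% in 26-month KD, 0.0551% to 1.22% in 26-month CD and at most 0.00170% in 12-month libraries. The 2009 olfactory, vomeronasal and taste receptor genes, which these tissues hardly use, summed to 237 to 1266 CPM in 26-month KD and 257 to 1480 CPM in 26-month CD brains, against 212 to 264 CPM in 12-month brains. In livers, CD replicates 3, 5, 6 and 7 had 1.68% to 1.91% mitochondrial counts, against 2.61% to 4.12% in KD livers and 2.998% to 3.97% in the other 4 CD livers.

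Members passed to testing only where the low-count filter kept them: 35 in liver (10 ligands, 25 receptors), 28 in brain (6 ligands, 22 receptors) and 29 in the fit of both tissues. In liver the members not tested were Cd40lg, Cd70, Lta, Tnfsf11, Tnfsf18, Tnfsf4, Tnfsf9 and Tnfrsf17. In brain they were Cd40lg, Cd70, Fasl, Lta, Ltb, Tnf, Tnfsf11, Tnfsf14, Tnfsf15, Tnfsf18, Tnfsf4, Cd40, Tnfrsf13c, Tnfrsf17 and Tnfrsf26, many of them ligands or receptors of lymphocytes. Tnf itself reached at most 0.678 CPM in any brain, and Cd40lg and Tnfsf14 had no count in any 12-month brain.

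Of the 43 genes, 22 lay in 9 clusters with gaps of at most 250 kb, and 21 lay alone (GRCm38). Ltb, Tnf and Lta sat at chr17:35194439-35205351, Cd27, Ltbr and Tnfrsf1a at chr6:125232622-125362484, and Tnfsf15 and Tnfsf8 at chr4:63727084-63861347. Tnfrsf26, Tnfrsf22 and Tnfrsf23 are related receptor genes side by side on chromosome 7. Whether the counting split reads between them was not checked, and their values are uncertain to that extent. Exons of Tnfsf12 and Tnfsf13 are shared with the read-through gene Tnfsfm13. Genes on the opposite strand overlap Tnfrsf18, Tnfrsf23, Tnfrsf26, Tnfsf13 and Tnfsf9, and without stated strand in the counting their reads cannot be told apart.

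Only Tnfsf8 and Fas passed the test in any diet or age comparison, and the bases just before their starts are shown for that reason (RefSeq, GRCm38.p6, 5′ to 3′ on the gene's strand). Tnfsf8, the CD30 ligand, is a gene on the minus strand at chr4:63831308-63861347, with the stretch at chr4:63861348-63861534. Fas, a death receptor, is on the plus strand at chr19:34290666-34327772, with the stretch at chr19:34290409-34290658. Capitals mark the match to the NF-kB decamer.
Tnfsf8: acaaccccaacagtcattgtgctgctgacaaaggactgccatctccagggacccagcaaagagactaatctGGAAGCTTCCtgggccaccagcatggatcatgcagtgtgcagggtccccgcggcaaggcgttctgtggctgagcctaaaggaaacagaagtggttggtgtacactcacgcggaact
Fas: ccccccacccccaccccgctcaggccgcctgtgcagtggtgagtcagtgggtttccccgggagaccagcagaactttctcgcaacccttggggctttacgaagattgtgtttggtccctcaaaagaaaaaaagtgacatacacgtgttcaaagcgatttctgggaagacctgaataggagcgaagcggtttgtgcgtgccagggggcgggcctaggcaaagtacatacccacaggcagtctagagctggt
These windows were searched on both strands for the NF-kB decamer and for the decamer bound by p53. The Tnfsf8 window held 1 NF-kB match and no p53 match, and the Fas window held neither. In windows of 250 bases before RefSeq starts, 10.8% of 27025 genes held the NF-kB decamer and 8.2% the p53 decamer (9.55% and 7.13% of 32851 windows). The Tnfsf8 stretch shown has 187 bases, since it ends where the annotated gene begins. Among the 33 members matched to a start, 8 held the NF-kB decamer (Fasl, Lta, Ltb, Tnfrsf25, Tnfrsf8, Tnfrsf9, Tnfsf18 and Tnfsf8) and 2 the p53 decamer (Fasl and Tnfsf13b). A match is a description of letters and not of binding.

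In brain, the family was mostly receptors. Summed over the 26 receptors, the median was 223 CPM in 26-month KD, 226 CPM in 26-month CD, 213 CPM in 12-month KD and 230 CPM in 12-month CD brains. The 17 ligands summed to a median of 19.7 CPM in 26-month KD, 19.5 CPM in 26-month CD, 16.4 CPM in 12-month KD and 14.8 CPM in 12-month CD brains. Means of at least 1 CPM were reached by 4 ligands in both 26-month groups and by 3 in both 12-month groups. Receptors at that level numbered 21 in 26-month KD, 21 in 26-month CD, 20 in 12-month KD and 19 in 12-month CD brains.

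Per kilobase of exon, the same 5 receptors led in every brain group. Tnfrsf21, a death-domain receptor known from neurons and oligodendrocytes, was first, at 21.0 ± 5.36 CPM per kb in 26-month KD and 22.4 ± 2.58 in 26-month CD brains (SD, n = 8 each). Tnfrsf19, a receptor known from neural progenitors and glia, followed at 10.8 ± 2.85 CPM per kb in 26-month KD and 9.81 ± 2.29 in 26-month CD brains. Tnfrsf18, Relt and Tnfrsf1a came next, at 5.17 ± 0.608, 4.82 ± 0.481 and 3.88 ± 0.954 CPM per kb in 26-month CD brains. Tnfrsf18 and Relt, and Relt and Tnfrsf1a, differed there by less than the larger SD of each pair, whereas the gaps from Tnfrsf21 to Tnfrsf19 and from Tnfrsf19 to Tnfrsf18 exceeded it.

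In liver the order was different. Tnfrsf1a, the main TNF receptor with a death domain, led at 41.6 ± 13.98 CPM per kb in KD and 62.0 ± 26.1 in CD livers (SD, n = 8 each). Ltbr, the receptor of membrane lymphotoxin, stood at 30.5 ± 4.36 CPM per kb in KD and 38.3 ± 5.13 in CD livers. Tnfrsf1b, the TNF receptor without a death domain, stood at 18.0 ± 5.00 CPM per kb in KD and 28.2 ± 13.3 in CD livers. Next came Fas (11.1 ± 2.17) and Tnfrsf21 (8.55 ± 3.92) in KD livers, and to Tnfrsf21 (21.2 ± 16.9) and Tnfrsf14 (12.72 ± 6.94) in CD livers. Tnfrsf1a and Ltbr differed in both diet groups by less than the SD of Tnfrsf1a. Summed receptors had a median of 374 CPM in KD livers (327 to 582) and 591 CPM in CD livers (314 to 1026), and summed ligands 58.1 CPM in KD livers (42.9 to 113) and 62.4 CPM in CD livers (40.2 to 158).

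Age in CD-fed mice was the comparison in which members were called. Gm10800 took at least 0.0551% of the counts in every 26-month CD brain and at most 0.00134% in every 12-month CD brain. Age and this library signal therefore cannot be told apart. Fas was higher in 26-month than in 12-month brains by 1.45 on the log2 scale (SE 0.37, edgeR quasi-likelihood test, adjusted p = 0.046). Tnfsf8 was higher by 2.67 (SE 0.60, adjusted p = 0.0191), but it passed the low-count filter only through 26-month libraries, those in which it was higher. In a fit of the CD age groups alone it did not pass the filter. With no filter at all Tnfsf8 differed by 2.62 (adjusted p = 0.0305). These were 2 of 28 members tested, where 1.26% of all 22079 genes were called, 1% higher and 0.258% lower. Since the filter let Tnfsf8 in through libraries in which it was higher, this count and its non-overlap below are description, not support. At an unadjusted p under 0.05 there were 9 members higher and 1 lower, against 7.81% of all genes higher and 4.02% lower. The median difference was 0.19 over the members, 18 of 28 of them above 0, and -0.00 over all genes, 49.5% of them above 0. Both calls came from few counts and were lost under several other settings, which are given below.

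Tnfsf8 had 0.541, 0.467, 3.68, 0.813, 3.49, 2.73, 0.913 and 1.16 CPM in 26-month CD brains (replicates 1 to 8), against 0.457, 0.205, 0.0873, 0.243 and 0.281 CPM in 12-month CD brains. The age groups did not overlap, although the lowest 26-month brain lay just above the highest 12-month brain, and replicates 3, 5 and 6 held most of the signal. Non-overlap in the higher direction occurred for 0.924% of all genes tested and for no other member. In counts, the 26-month CD brains held 6 to 37 reads of Tnfsf8 and the 12-month CD brains 1 to 5, and of Fas the 26-month CD brains held 11 to 68.

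Fas had 1.35, 1.79, 3.48, 2.80, 3.37, 6.40, 4.11 and 1.06 CPM in 26-month CD brains, against 1.10, 1.23, 0.873, 1.54 and 0.750 CPM in 12-month CD brains. Replicates 1 and 8 of the older group lay within the range of the younger one, and replicate 6 was highest. Fas signals through FADD and caspase-8 in textbook accounts. Casp8 was 0.52 higher in 26-month brains on the log2 scale and was not called. The 12 tested genes of caspase-8 and necroptosis execution, to which it belongs, had a median of 0.04 and no call. Whether Fas acted through them was not tested.

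**Figure D1:**
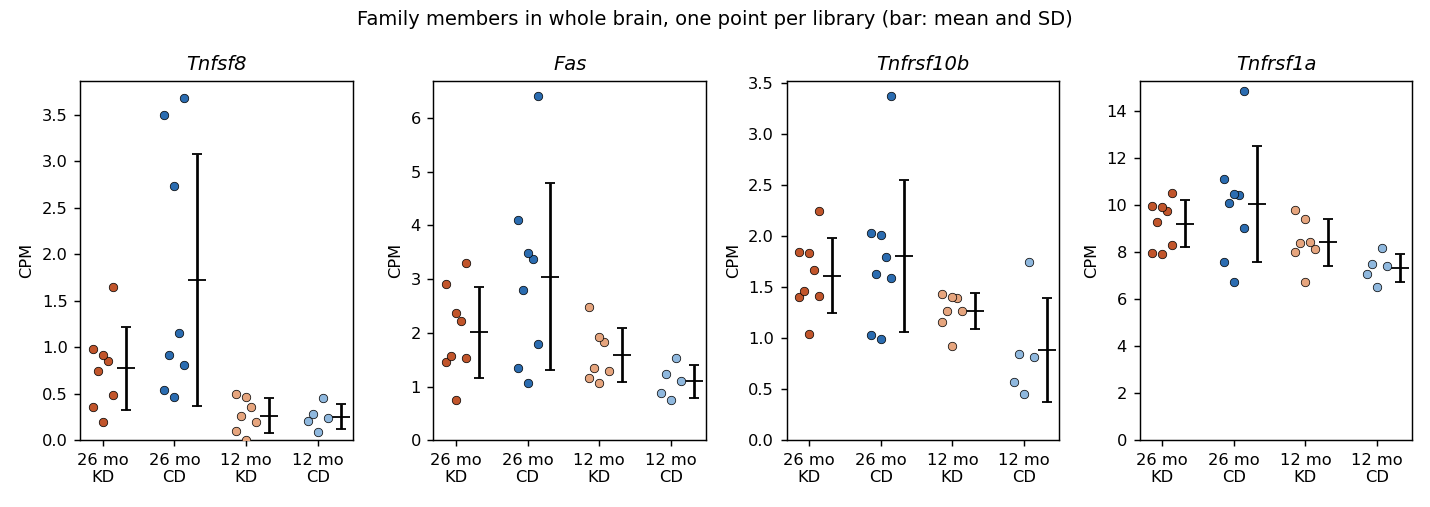
CPM of Tnfsf8, Fas, Tnfrsf10b and Tnfrsf1a in each brain library, by group, with 26-month KD and CD left of 12-month KD and CD; a point is 1 library and the bars give mean and SD. In 26-month CD brains Tnfsf8 reached 3.68 CPM and Fas 6.40 CPM, against at most 0.457 and 1.54 CPM in 12-month CD brains.

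Further receptors with a death domain or a link to NF-kB had small p but were not called with age. Tnfrsf10b, the mouse receptor of TRAIL, had 0.992 to 3.37 CPM (median 1.71) in 26-month CD brains, against 0.457, 0.818, 1.75, 0.568 and 0.844 CPM in 12-month CD brains, a difference of 0.995 (SE 0.28, adjusted p = 0.0789). Tnfrsf1a had 6.76 to 14.9 CPM (median 10.3) in 26-month CD brains, against 7.5, 6.54, 7.07, 8.19 and 7.41 CPM in 12-month CD brains (0.45, SE 0.13, adjusted p = 0.0987). Ltbr had 4.61 to 8.35 CPM (median 5.92) in 26-month CD brains, against 3.66, 3.48, 5.15, 5.19 and 5.16 CPM in 12-month CD brains (0.42, SE 0.14, adjusted p = 0.154). For each of these 3 receptors the age groups overlapped.

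Tnfrsf1b differed by 0.47 (SE 0.20, adjusted p = 0.303), and Eda2r, the receptor of the A2 form of ectodysplasin, by 0.26 (SE 0.26, adjusted p = 0.791). Tnfsf10, which encodes TRAIL, differed by 0.24 (SE 0.21, adjusted p = 0.75). The lowest p among members below 0 belonged to Tnfrsf8, the receptor of Tnfsf8, at -0.87 (SE 0.34, adjusted p = 0.264). It had 0.542 to 1.87 CPM (median 1.37) in 26-month CD brains, against 1.10 to 4.62 CPM (median 2.16) in 12-month CD brains. Tnfrsf18 (-0.19), Cd27 (-0.23), Tnfrsf19 (-0.22) and Tnfrsf11b (-0.36), the decoy receptor osteoprotegerin, followed, with adjusted p of 0.555 to 0.744.

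Other measures moved with age in the same libraries. The 12 microglia and macrophage markers summed to 378 to 459 CPM (median 393) in 26-month CD brains, against 280 to 338 CPM (median 291) in 12-month CD brains, with no overlap, and 5 of the 12 were called higher. Of 6 meningeal fibroblast markers 4 were called lower. All 6 oligodendrocyte markers lay above 0 (median 0.44), 5 at an unadjusted p under 0.05 and none called. Of 6 astrocyte markers Gfap was called higher (0.88, adjusted p = 0.032), but 4 lay below 0, with a median of -0.04. Gm10800 took 0.483%, 1.22% and 0.0551% of the counts in replicates 3, 5 and 6, the 26-month CD brains with most Tnfsf8, and 0.0606% to 0.386% in the other 5. With the summed CPM of the chemosensory receptor genes as a covariate, the differences were 2.01 (adjusted p = 0.131) for Tnfsf8 and 1.46 (adjusted p = 0.104) for Fas. Without the brains high in Gm10800, Fas differed by 1.44 (adjusted p = 0.0472) and Tnfsf8 did not pass the filter. The part of the cell markers in these values was not tested.

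Both calls depended on the settings. The number of members called was 0 with a minimum of 10 counts in every library, 1 with limma, 1 with no filter and 0 in a fit of the age groups alone, in which Tnfsf8 did not pass the filter, and 3 with DESeq2, which added Tnfrsf10b (adjusted p = 0.0477). Leaving out 1 library at a time gave 0 to 3 calls. Tnfsf8 was lost without 12-month CD replicate 4, 7, 13 or 16 (adjusted p = 0.0588, 0.073, 0.0542 and 0.0561). Fas was lost without any of the 5 12-month CD brains or without 26-month CD replicate 3, 4, 5, 6 or 7, with a difference between 1.20 and 1.61 throughout.

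Downstream genes were described by lists of the pathway. Of 16 NF-kB and TNF target genes tested, 2 were called higher in 26-month CD brains (1% of all genes), 7 had an unadjusted p under 0.05 in that direction (7.81% of all genes) and 15 lay above 0, with a median of 0.36. Csf1, the growth factor of microglia and macrophages, had 34.6 to 49.8 CPM (median 39.5) in 26-month CD brains, against 26.0 to 30.2 CPM (median 29.7) in 12-month CD brains (0.48, SE 0.09, adjusted p = 0.00259), with no overlap. Bcl3, an atypical IkB protein that works with NF-kB subunits in the nucleus, had 0.992 to 2.37 CPM (median 1.57) in 26-month CD brains, against 0.409 to 1.30 CPM (median 0.549) in 12-month CD brains (1.16, SE 0.30, adjusted p = 0.0451). Like Tnfsf8, Bcl3 needed the 26-month libraries, in which it was higher, to pass the low-count filter. Its call and the counts that include it are therefore description, not support. Under the same limit Bcl3 was also the 1 gene called among 12 IKK and NF-kB subunits and inhibitors. There Nfkbia, the inhibitor that NF-kB itself induces, had 10.4 to 23.95 CPM in 26-month CD and 9.73 to 11.9 CPM in 12-month CD brains (0.56, adjusted p = 0.0943).

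None of the other lists had a called gene with age. These were 24 adaptors, ubiquitin ligases and kinases (median 0.03, with Sharpin, a part of the linear ubiquitin ligase, at 0.18 and Tab2 at 0.11), 12 genes of caspase-8 and necroptosis execution (median 0.04, Casp9 at 0.17) and 19 p53 target genes (median 0.06, Cdkn1a at 0.66 and Phlda3 at 0.50). They also included 7 proteases and traps (median -0.05, with Grn, whose product progranulin binds TNF receptors, at 0.24 and Rhbdf2, a partner of the TNF-cleaving protease, at 0.72) and 4 related receptors and ligands outside the naming rule (Rell1 at -0.16 and Ngfr at 0.23). The median over all genes was -0.00.

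**Figure D2:**
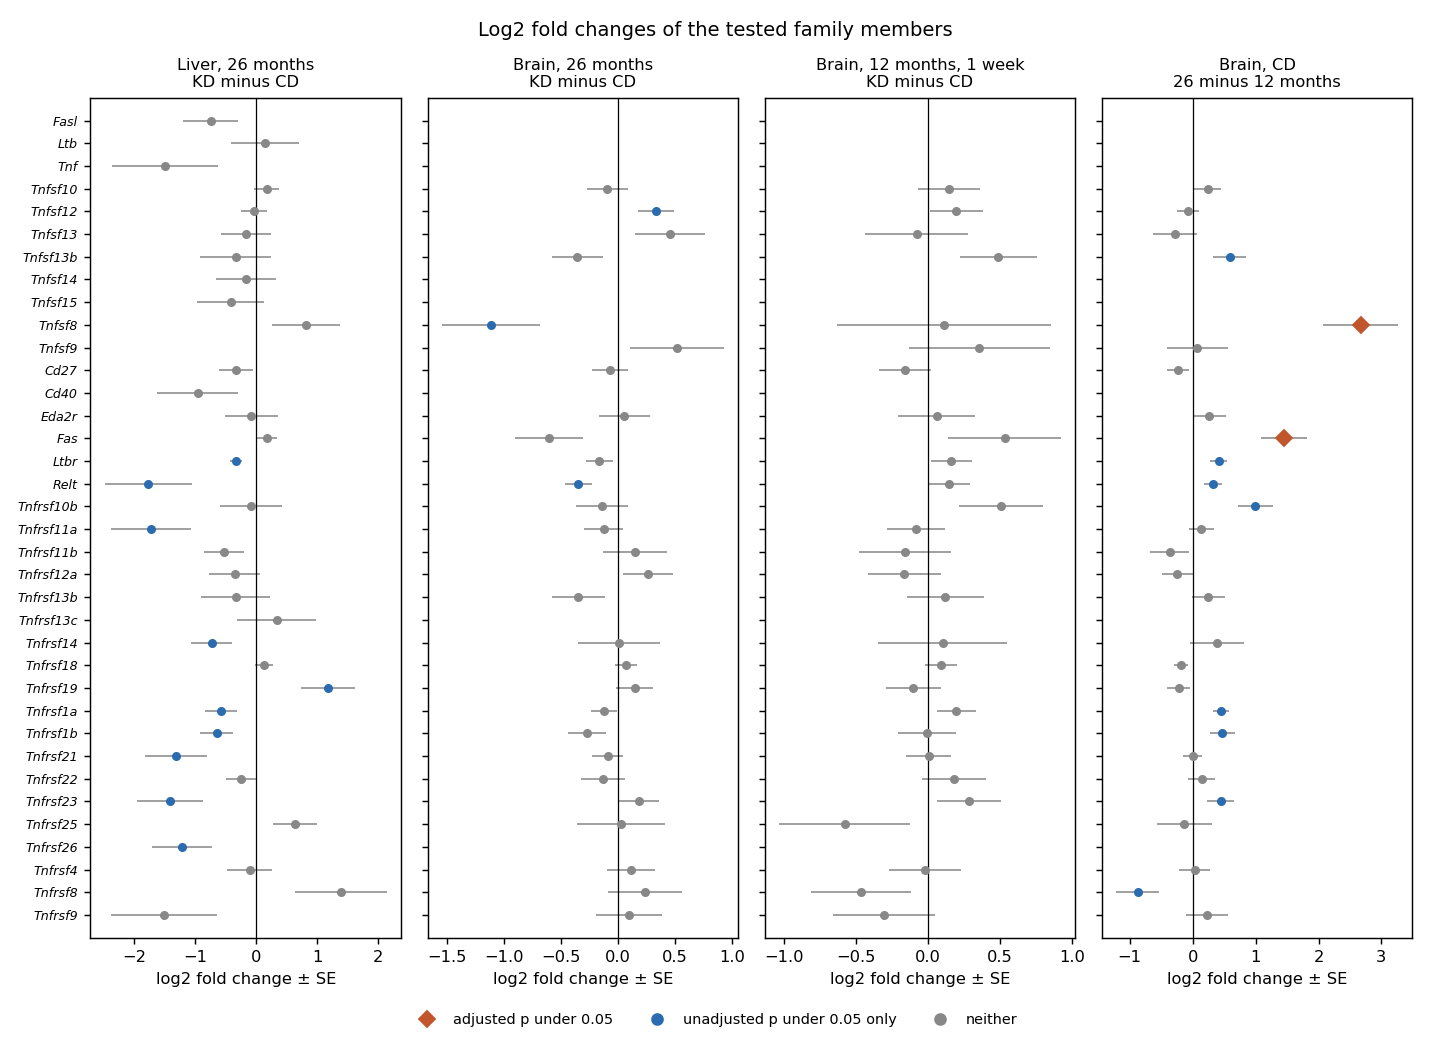
Log2 difference and SE of every member tested in 4 comparisons, which are KD minus CD in liver, KD minus CD in 26-month brain, KD minus CD after 1 week in 12-month brain, and 26 minus 12 months in CD brain; diamonds have an adjusted p under 0.05, blue points an unadjusted p under 0.05 only. The 2 diamonds, Tnfsf8 at 2.67 and Fas at 1.45, are in the age panel.

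After the year of cyclic KD no member was called in brain, as was no gene of the 22079 tested (0%). At an unadjusted p under 0.05 there were 3 members, 1 higher and 2 lower, against 1.52% of all genes higher and 3% lower. The median difference was -0.03, with 14 of 28 members above 0, and -0.00 over all genes. No member had groups without overlap, and 1 gene of the 22079 had (0.00453%).

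Relt, a TRAF-binding receptor of unsettled ligand, had the smallest p. It had 9.41 to 14.96 CPM (median 13.4) in 26-month KD brains, against 12.5 to 17.3 CPM (median 16.3) in 26-month CD brains, a difference of -0.35 (SE 0.12, unadjusted p = 0.00701, adjusted p = 0.989). The groups overlapped between 12.5 and 14.96 CPM. Tnfsf12, the TWEAK ligand, had 2.94 to 7.19 CPM (median 4.96) in KD, against 2.98 to 5.11 CPM (median 3.61) in CD brains (0.33, SE 0.16, unadjusted p = 0.0461). Its receptor Tnfrsf12a had 1.74 to 5.16 CPM in KD and 1.19 to 2.99 CPM in CD brains (0.26, SE 0.22).

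Tnfsf8 and Fas are given here beside the age comparison, which shares the 26-month CD brains, so that the 2 differences are not independent. Tnfsf8 had 0.852, 0.489, 0.202, 0.746, 0.978, 1.65, 0.359 and 0.914 CPM in 26-month KD brains, against 0.467 to 3.68 CPM in 26-month CD brains (-1.11, SE 0.43, unadjusted p = 0.0153, adjusted p = 0.989). Fas had 2.37, 1.57, 2.23, 0.746, 3.30, 2.91, 1.52 and 1.46 CPM in 26-month KD brains, against 1.06 to 6.40 CPM in 26-month CD brains (-0.60, SE 0.30, unadjusted p = 0.0539, adjusted p = 0.989). For both genes the KD values lay within or below the CD range, and neither difference passed the test.

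The other members named in this comparison had an adjusted p of 0.989 or above. Among B-cell survival ligands, Tnfsf13b (BAFF) differed by -0.36 (SE 0.22) and Tnfsf13 (APRIL) by 0.45 (SE 0.31), and Tnfsf9, the ligand of Tnfrsf9, by 0.52 (SE 0.41). The TNF receptors Tnfrsf1a and Tnfrsf1b differed by -0.12 (SE 0.11) and -0.27 (SE 0.17). For the TRAIL system the differences were -0.10 (SE 0.18) for Tnfsf10, -0.14 (SE 0.23) for Tnfrsf10b and 0.18 (SE 0.18) for the decoy Tnfrsf23, and Eda2r was at 0.05 (SE 0.22).

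In the pathway lists no gene was called after the year of KD. The 16 NF-kB and TNF target genes had a median of -0.11 with 3 above 0, and the smallest p were those of Nfkbia (-0.42) and Icam1 (-0.60), an adhesion molecule. Nfkbia had 8.86 to 14.3 CPM in 26-month KD and 10.4 to 23.95 CPM in 26-month CD brains. In the other lists the genes of smallest p included Tradd (0.31), Map3k7 (-0.09), Ikbkb (0.12), Bid (-0.39), Rhbdf2 (-0.51), Adam17 (0.13), which encodes the protease that releases TNF, Cdkn1a (-0.46), Rrm2b (-0.14), Rell1 (0.27) and Eda (-0.21). Microglia and macrophage markers summed to 297 to 473 CPM (median 419) in 26-month KD and 378 to 459 CPM (median 393) in 26-month CD brains.

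One week of KD in 12-month mice gave no call among the 28 members, against 0.00453% of all genes, and no member had even an unadjusted p under 0.05, against 2.65% of all genes. All 28 members overlapped between KD and CD, where 0.149% of all genes were higher and 0.113% lower without overlap. The 12-month CD brains are also the reference of the age comparison. The median member difference was 0.10, with 17 of 28 above 0, against -0.00 over all genes. Tnfsf13b had the smallest p, with 4.23 to 10.1 CPM (median 5.69) in 12-month KD brains, against 2.86 to 5.41 CPM (median 4.94) in 12-month CD brains (0.49, SE 0.27, unadjusted p = 0.0786). Next came Tnfrsf10b (0.51, SE 0.29), Tnfrsf1a (0.20, SE 0.14) and Fas (0.53, SE 0.39). Fas had 1.07 to 2.48 CPM (median 1.35) in the KD brains, against 0.750 to 1.54 CPM (median 1.10) in the CD brains.

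Members below 0 after 1 week were led by Tnfrsf8 (-0.47, SE 0.35) and Tnfrsf25 (-0.58, SE 0.46), a death-domain receptor of T cells, followed by Tnfrsf9 (-0.31), Cd27 (-0.16) and Tnfrsf12a (-0.16). Tnfsf10 was at 0.15, Tnfrsf23 at 0.28, Eda2r at 0.06 and Tnfrsf1b at -0.01. Tnfsf8 had 0 to 0.496 CPM (median 0.262) in 12-month KD and 0.0873 to 0.457 CPM (median 0.243) in 12-month CD brains. All adjusted p were 1. No pathway gene was called, and those of smallest p in their lists were Sharpin (0.13), Traf4 (0.23), Relb (0.33), Csf1 (0.15), Chuk (-0.09), Diablo (-0.15), Casp8 (0.26), Btg2 (-0.35), Ccng1 (-0.30), Grn (0.12), Rhbdf2 (0.33), Ngfr (0.78) and Rell2 (0.15).

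The KD effect at 26 months minus that at 12 months was fitted as an interaction. No member and no gene was called (0%), 3 members had an unadjusted p under 0.05, against 4.52% of all genes (1.56% higher, 2.96% lower), and all 3 lay below 0. They were Relt (-0.50, SE 0.19, unadjusted p = 0.012), Tnfsf13b (-0.85, SE 0.35, unadjusted p = 0.0223) and Fas (-1.14, SE 0.49, unadjusted p = 0.0291), each with an adjusted p of 1. Tnfrsf1a was at -0.32, Tnfrsf10b at -0.65, Tnfrsf1b at -0.26, Tnfsf10 at -0.24 and Eda2r at -0.01. Among the members above 0 were Tnfrsf8 (0.70), Tnfrsf12a (0.42), Tnfsf13 (0.53), Tnfrsf25 (0.60) and Tnfrsf19 (0.24). The arms differ in age, length of the diet, regimen (cyclic against continuous) and the food eaten at sampling (CD against KD), and these cannot be told apart. Of 6 endothelium markers, all lay below 0 in the interaction (median -0.53) and 5 had an unadjusted p under 0.05. They summed to 109 to 141 CPM in 26-month KD and 95.7 to 191 CPM in 26-month CD brains, and to 151 to 189 CPM in 12-month KD and 94.4 to 143 CPM in 12-month CD brains, without overlap at 12 months. Their part in the values of the members was not tested.

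In the pathway lists the interaction gave no call either. The genes of smallest p were Csf1 (-0.29) and Icam1 (-0.90) among the NF-kB and TNF targets, Nfkbia (-0.42) and Relb (-0.32) among NF-kB subunits and inhibitors, and Sharpin (-0.17) and Traf4 (-0.33) among adaptors. In the remaining lists they included Casp9 (-0.11), Btg2 (0.51), Ccng1 (0.35), Rhbdf2 (-0.85), Adam17 (0.20), Ngfr (-0.71) and Rell1 (0.38).

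In liver, no member and no gene of 18002 was called after the year of cyclic KD (0%). At an unadjusted p under 0.05 there were 1 member higher and 9 lower of 35, against 7.04% of all genes higher and 8.47% lower. No member had KD and CD livers without overlap, as 0.0222% of all genes did in the higher and 0.0444% in the lower direction. The median member difference was -0.33, with 9 of 35 above 0, whereas over all genes it was 0.04 with 55.8% above 0. By DESeq2 no member and 99 genes were called, and with edgeR 117 genes and no member without CD replicate 1. The members at an unadjusted p under 0.05 numbered 2 with limma, 1 with the chemosensory receptor covariate, 0 without the livers high in Gm10800, 4 without CD replicate 3 and 6 without CD replicate 6. They numbered at most 13 with 1 library left out and 9 without the CD livers low in mitochondrial counts. In that last setting Relt, Tnfrsf11a, Tnfrsf1a, Tnfrsf1b, Tnfrsf21 and Tnfrsf23 lay above 0, whereas in the main fit they lay below. The 9 therefore do not repeat the main result. The share of all genes at an unadjusted p under 0.05 was not counted in these other settings. CD livers are given below in 2 sets by their mitochondrial counts, since many members differed between the sets. Counts of members made on this split are therefore description, not support.

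Tnfrsf1a had 78.7 to 165 CPM (median 93.1) in KD livers, against 211 to 244 CPM (median 218) in CD replicates 3, 5, 6 and 7 and 81.8 to 106 CPM (median 103) in the other 4 CD livers. Tnfrsf1b had 50.9 to 107 CPM (median 65.0) in KD livers, against 133 to 177 CPM (median 152) in those 4 CD livers and 50.9 to 77.0 CPM (median 60.0) in the others. Tnfrsf11a, which encodes RANK, had 5.88 to 28.9 CPM (median 9.79) in KD livers, against 54.9 to 89.1 CPM (median 85.6) in the 4 CD livers and 4.27 to 10.7 CPM (median 6.14) in the others. In each case the 4 CD livers lay above all 12 other livers, and the remaining CD livers overlapped the KD livers.

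Tnf had 0.840 to 20.7 CPM (median 2.46) in KD livers, against 13.5 to 48.4 CPM (median 17.6) in the 4 CD livers and 0.398 to 2.72 CPM (median 1.47) in the others (-1.50, SE 0.87, adjusted p = 0.41). Relt had 1.01 to 5.98 CPM (median 2.19) in KD livers, against 9.18 to 25.4 CPM (median 14.7) in the 4 CD livers and 0.298 to 2.31 CPM (median 1.14) in the others. Tnfrsf21 had 21.4 to 66.0 CPM (median 28.7) in KD livers, against 124 to 176 CPM (median 151) in the 4 CD livers and 19.1 to 29.8 CPM (median 23.4) in the others. The highest KD value of Tnf, Relt, Tnfrsf11a and Tnfrsf21 was above every CD liver other than the 4, and only that of Tnf reached the lowest of the 4.

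Over the 35 members tested, 23 were higher in all of the 4 CD livers than in any of the other 4 CD livers, as were 24.6% of all genes, and 11 were higher than in all 12 other livers, as were 11.8% of all genes. These 11 were Tnfrsf11a, Cd40, Tnfrsf1b, Tnfrsf14, Cd27, Tnfrsf1a, Relt, Tnfrsf26, Tnfrsf22, Tnfrsf23 and Tnfrsf21, all receptors. No member was lower in all 4 than in the other 4 CD livers, against 28.8% of all genes. The sets were used because members differed between them, so these counts beside the shares of all genes are description, not support. Cd40, a receptor of antigen-presenting cells, had 1.995 to 13.2 CPM in KD livers, against 17.2 to 24.7 CPM in the 4 CD livers and 0.497 to 3.60 CPM in the others.

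Not all members followed this split. Ltbr, with the smallest p, had 52.8 to 88.5 CPM (median 70.8) in KD livers, against 76.9 to 115 CPM (median 92.0) in the 4 CD livers and 75.5 to 93.7 CPM (median 88.6) in the others (-0.33, SE 0.11, unadjusted p = 0.00624, adjusted p = 0.291). Fas had 17.4 to 30.5 CPM (median 23.2) in KD livers, against 11.1 to 24.1 CPM (median 18.5) in the 4 CD livers and 18.9 to 25.7 CPM (median 23.1) in the others (0.17, SE 0.16, adjusted p = 0.608). Tnfsf10 had 18.2 to 49.0 CPM in KD livers and 15.2 to 35.2 CPM in CD livers (0.17, SE 0.20, adjusted p = 0.683). Tnfrsf19 had the smallest p of those above 0, with 6.94 to 30.9 CPM (median 11.3) in KD livers and 1.19 to 11.8 CPM (median 7.36) in CD livers (1.18, SE 0.44, unadjusted p = 0.017, adjusted p = 0.295). Within the CD livers its median was 3.55 CPM in the 4 and 8.34 CPM in the others. Of the bile duct markers all 5 tested lay above 0 (median 1.9996) and 3 had an unadjusted p under 0.05. Yet the median of their sum was not higher in KD livers. The sum was 43.2 to 308 CPM (median 55.8) in KD livers and 46.8 to 231 CPM (median 59.2) in CD livers. The part of these markers in Tnfrsf19 was not tested.

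The remaining differences, KD minus CD on the log2 scale, were -1.72 (SE 0.65) for Tnfrsf11a, -1.31 (SE 0.50) for Tnfrsf21, -1.41 (SE 0.54) for Tnfrsf23, -1.77 (SE 0.71) for Relt, -1.21 for Tnfrsf26, -0.65 (SE 0.27) for Tnfrsf1b, -0.73 for Tnfrsf14 and -0.58 (SE 0.26) for Tnfrsf1a. Their adjusted p were 0.295 to 0.314. Cd40 was at -0.96, Eda2r at -0.08 and Tnfrsf10b at -0.08. Tnfrsf8 (1.39), Tnfrsf25 (0.64) and Tnfsf8 (0.82) lay above 0 with adjusted p of 0.374 to 0.475.

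**Figure D3:**
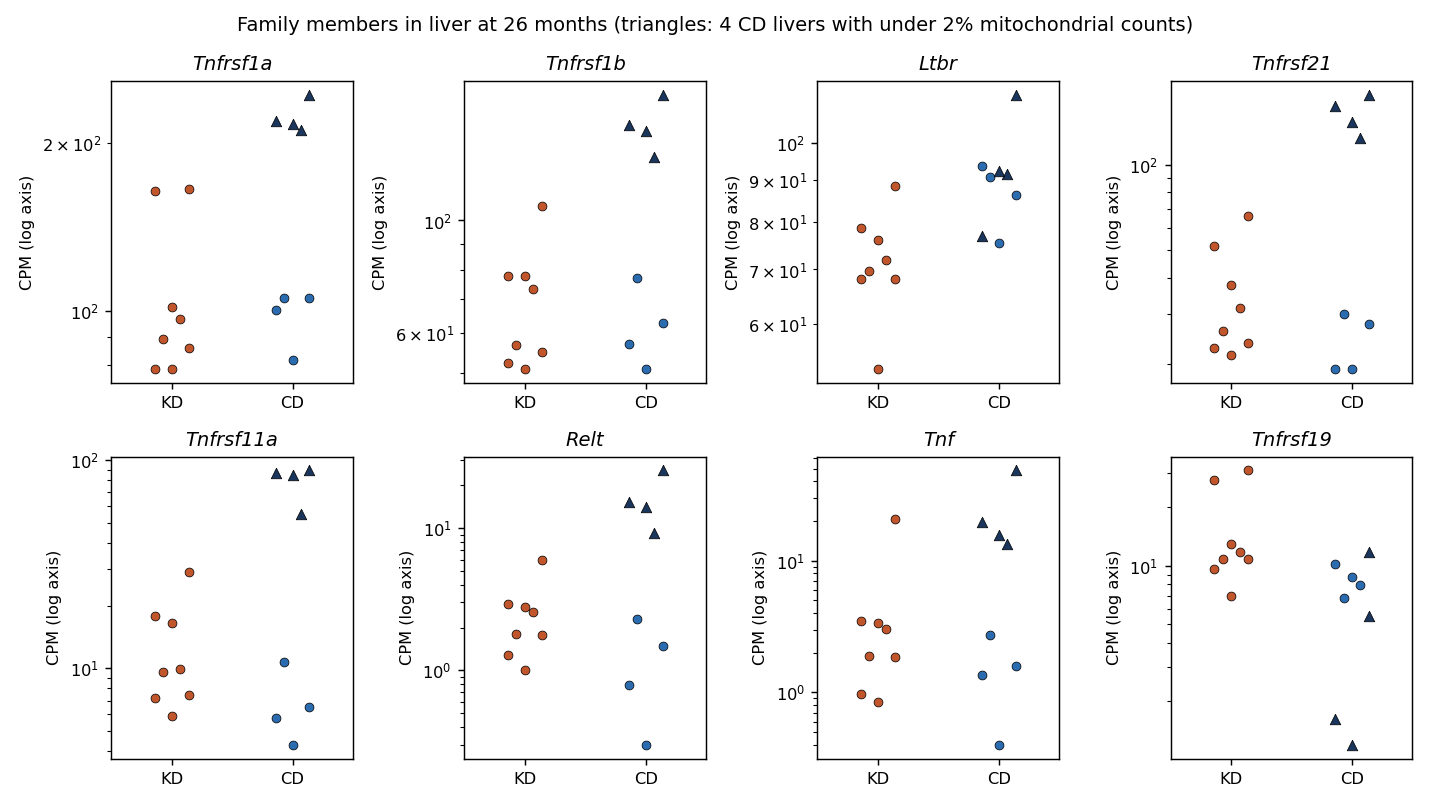
CPM on a log axis of Tnfrsf1a, Tnfrsf1b, Ltbr, Tnfrsf21, Tnfrsf11a, Relt, Tnf and Tnfrsf19 in each liver library, KD left of CD; triangles are the 4 CD livers with under 2% mitochondrial counts. The triangles lie above all other livers for Tnfrsf1a (211 to 244 CPM), Tnfrsf1b, Tnfrsf21, Tnfrsf11a and Relt, but not for Ltbr, Tnf and Tnfrsf19.

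Several marker sums of other cells differed between the same sets of livers, though not all in one direction. The 6 Kupffer cell markers summed to 132 to 1421 CPM (median 247) in KD livers, against 2209 to 3169 CPM (median 3129) in the 4 CD livers and 123 to 750 CPM (median 217) in the others. The 12 microglia and macrophage markers summed to 226 to 1952 CPM in KD livers, against 3744 to 4785 CPM in the 4 CD livers and 214 to 716 CPM in the others. Neutrophil markers summed to 5.78 to 23.6 CPM in KD livers, against 89.0 to 1327 CPM in the 4 CD livers and 2.28 to 8.30 CPM in the others. Each of these marker sums was higher in the 4 CD livers than in every other liver.

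T and NK cell markers summed to 13.4 to 110 CPM in KD livers, against 133 to 214 CPM in the 4 CD livers and 22.9 to 41.7 CPM in the others. Hepatocyte markers went the other way, at 20959 to 34294 CPM in KD livers, against 12072 to 17660 CPM in the 4 CD livers and 26896 to 32419 CPM in the others. Summed monocyte markers were also lower, at 2793 to 3600 CPM in the 4 and 3627 to 4585 CPM in the other CD livers. Yet 5 of the 6 lay below 0 in KD minus CD (median -1.23), so the sum does not stand for the single markers. No amount of monocytes is read from it. B and plasma cell markers summed to 129 to 230 and 222 to 283 CPM. Endothelium (386 to 670 against 245 to 303 CPM) and stellate cell markers (713 to 993 against 416 to 530 CPM) were higher in the 4. KD replicate 12, with 1421 CPM of Kupffer markers, was also the KD liver with most Tnf (20.7 CPM), Relt (5.98 CPM) and Tnfsf10 (49.0 CPM). The part of the cell mixture in the values of these members was not tested.

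**Figure D4:**
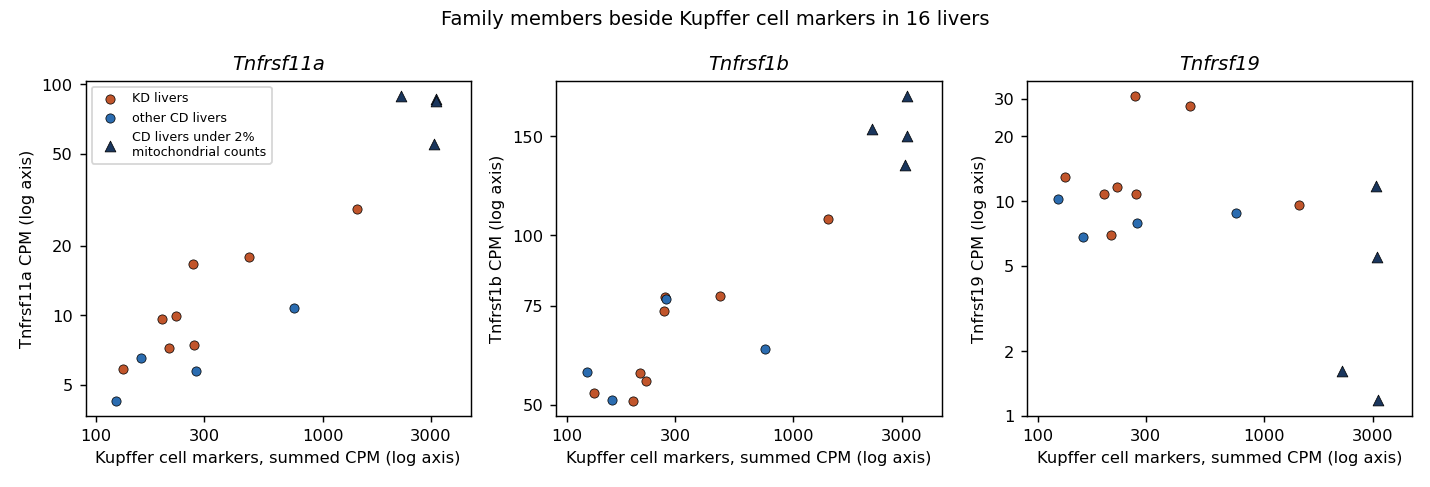
CPM of Tnfrsf11a, Tnfrsf1b and Tnfrsf19 in 16 livers against the summed CPM of 6 Kupffer cell markers, both on log axes, with KD and CD livers and the 4 CD livers under 2% mitochondrial counts marked. The 4 livers sit apart at 2209 to 3169 CPM of markers, where Tnfrsf11a was 54.9 to 89.1 CPM, and the remaining CD livers lie among the KD livers.

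Without those 4 CD livers, a setting chosen after seeing the data, 4 CD livers remained and again no member was called. At an unadjusted p under 0.05 there were 9 members in that setting, for which neither direction nor the share of all genes was counted. The difference then lay above 0 for Tnfrsf11a (0.92), Tnfrsf21 (0.54), Tnfrsf23 (0.65), Relt (1.05), Tnfrsf1b (0.14), Tnfrsf1a (0.12), Tnf (1.57), Cd40 (1.59), Eda2r (1.05) and Tnfrsf10b (1.49), each of which had been below 0. Each of these members was higher in the livers left out than in the other CD livers. Leaving those livers out therefore raises the differences by construction, and the change of sign is description, not support. Ltbr stayed below 0 at -0.29, Tnfrsf19 above it at 0.83, and Fas was at 0.00. Tnfrsf8, the CD30 receptor, was at 2.10.

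Tnfrsf8 and Tnfsf8 had higher medians in the livers high in Gm10800. Their medians were also higher in the 4 CD livers than in the other CD livers, with overlap. These were 0.793 against 0.0438 CPM for Tnfrsf8 and 2.12 against 0.659 CPM for Tnfsf8. Tnfrsf8 had 1.36 to 3.03 CPM (median 1.98) in the 6 livers with 1.23% to 2.39% of Gm10800, against 0 to 1.19 CPM (median 0.263) in the other 10. Tnfsf8 had 0.816 to 5.89 CPM (median 2.57) in those 6, against 0.210 to 2.59 CPM (median 0.878) in the other 10. Medians in the same 2 sets were 4.74 and 5.39 CPM for Tnfrsf18, 2.07 and 1.79 CPM for Tnfrsf4, and 1.61 and 1.60 CPM for Tnfrsf9. The share of all genes that separate these livers was not counted. With those 6 livers left out, the difference between KD and CD was -0.09 for Tnfsf8. Of the 6 livers 5 were KD, so that this signal and the diet are partly confounded.

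In the pathway lists no gene was called in liver. The 23 NF-kB and TNF target genes had a median of -0.50 with 2 above 0, and 6 had an unadjusted p under 0.05 below 0, led by Ier3 (-2.60) and Zc3h12a (-0.97), which degrades inflammatory transcripts. IKK and NF-kB genes had a median of -0.22 (Nfkbia -0.53, Ikbkb -0.16), adaptors -0.14 (Sharpin -0.28, Ripk3 -1.44) and caspase-8 and necroptosis genes -0.13 (Bid -0.43, Apaf1 -1.03). Proteases and traps had a median of -0.44 (Adam10 -0.78, Grn -0.92), p53 targets -0.25 (Cdkn1a -1.05, Trp53inp1 0.22), and among the related genes Ngfr was at 0.83 and Rell1 at -0.30. All genes tested had a median of 0.04, and the same 4 CD livers entered these comparisons.

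Liver and brain of the 26-month CD mice differed in most members. The libraries share replicate numbers, and whether equal numbers mean the same mouse was not given, so the tissues were compared as unpaired. Of 29 members tested, 20 were higher in liver and 3 lower, where 36% of all genes were called higher and 41% lower (77% in all, 78.3% at an unadjusted p under 0.05). The median member difference was 2.10, with 23 of 29 above 0, against -0.07 with 48% above 0 over all genes. Values here are CPM per kb of exon from 1 scaling of both tissues, a step that assumes most genes to be alike.

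Among receptors called higher in liver, the smallest p were those of Ltbr, Tnfrsf1a, Tnfrsf1b and Tnfrsf14. Ltbr had 32.3 to 56.3 CPM per kb (median 43.4) in liver, against 1.85 to 3.25 (median 2.35) in brain, a difference of 4.17 (SE 0.15, adjusted p = 6.19e-13). Tnfrsf1a had 31.8 to 109 CPM per kb (median 69.2) in liver, against 2.40 to 5.31 (median 3.69) in brain (4.27, SE 0.29, adjusted p = 9.42e-10). Tnfrsf1b had 13.4 to 53.6 CPM per kb (median 31.1) in liver, against 0.965 to 2.37 (median 1.54) in brain (4.36, SE 0.32, adjusted p = 3.1e-09). Tnfrsf14, a receptor of LIGHT and BTLA, had 5.53 to 25.3 CPM per kb (median 13.5) in liver, against 0.229 to 1.03 (median 0.438) in brain (4.71, SE 0.44, adjusted p = 4.74e-08). For all 4 the tissues did not overlap.

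Of the receptors that signal cell death and the TRAIL system, those called higher in liver were Fas at 3.01 (SE 0.32, adjusted p = 2.52e-07), with Tnfsf10 at 2.70, Tnfrsf10b at 1.51, Tnfrsf22 at 1.58 and Tnfrsf23 at 2.37. So were the TWEAK pair Tnfsf12 (1.78) and Tnfrsf12a (1.93), and Tnfsf13 (1.71) with its receptor Tnfrsf13b (2.10). The further members called higher in liver were Cd27 (2.17), Cd40 (4.004), Eda2r (2.26), Tnfrsf11a (2.24), Tnfrsf11b (2.13), Tnfrsf26 (5.03) and Tnfrsf9 (2.41). The 4 CD livers with few mitochondrial counts are among the 8 livers here and widened the range of those that followed them.

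The 3 members called lower in liver were Tnfrsf19, Tnfrsf25 and Tnfrsf18. Tnfrsf19 had 0.290 to 2.79 CPM per kb (median 1.67) in liver, against 5.20 to 12.3 (median 8.73) in brain (-2.53, SE 0.39, adjusted p = 1.56e-05). Tnfrsf25 was at -1.95 (SE 0.45, adjusted p = 0.000916). Tnfrsf18, the GITR receptor of T cells, had 2.25 to 4.62 CPM per kb (median 3.803) in liver, against 4.31 to 5.58 (median 4.57) in brain (-0.41, SE 0.14, adjusted p = 0.0123), with overlapping tissues.

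The 6 members not called between tissues were Tnfrsf8 (-0.91), Relt (-0.58), Tnfrsf4, Tnfsf13b, Tnfrsf21 and Tnfsf8. Tnfrsf21 had 4.70 to 49.5 CPM per kb (median 21.1) in liver and 16.1 to 23.2 (median 21.7) in brain, and Relt 0.104 to 8.95 (median 1.88) in liver and 3.59 to 4.88 (median 4.56) in brain. Both were among the members that followed the 4 CD livers, and their liver range enclosed their brain range.

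**Figure D5:**
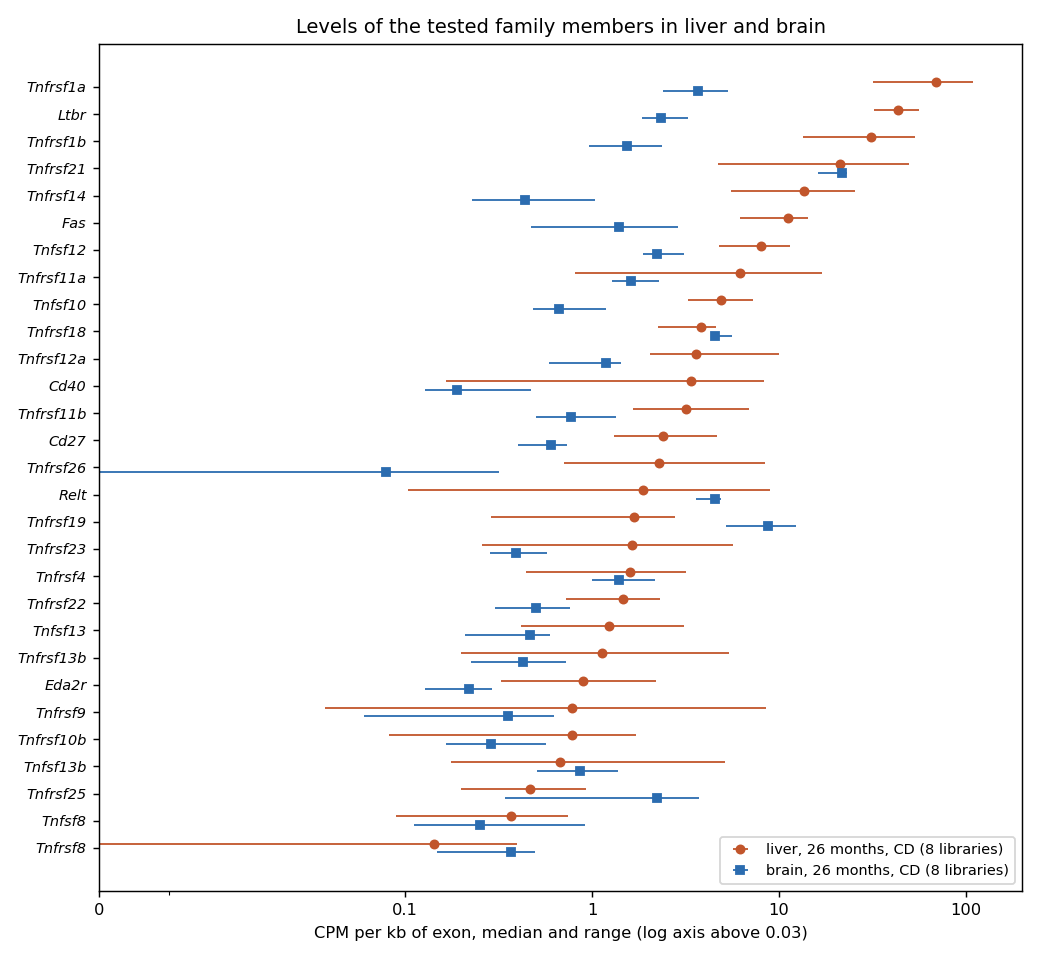
Median and range of CPM per kb of exon, on a log axis that is linear near 0, for 29 members in 8 livers and 8 brains of 26-month CD mice, liver above brain for each gene. Tnfrsf1a, Ltbr and Tnfrsf1b had liver medians of 69.2, 43.4 and 31.1 against brain medians of 3.69, 2.35 and 1.54, while Tnfrsf21 and Tnfrsf19 led in brain.

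The intracellular genes of the pathway are counted against the 36% of all genes called higher and 41% called lower in liver. Higher in liver were 19 of 25 adaptors, ubiquitin ligases and kinases (3 lower), among them Ripk1 (3.05) and Otulin (1.78), 11 of 13 caspase-8 and necroptosis genes (1 lower), among them Cflar (3.22), the inhibitor of caspase-8, and all 12 IKK and NF-kB subunits and inhibitors, among them Bcl3 (5.35) and Rela (2.11). Of the NF-kB and TNF targets 18 of 21 were higher and none lower, with Tnfaip2 at 5.76. Proteases and traps were higher for 6 of 7 (1 lower), with Furin (3.26) and Rhbdf2 (4.66), and related genes for 2 of 4 (1 lower), with Rell1 at 1.48 and Rell2 at -4.86. Of the p53 targets 11 of 20 were higher and 6 lower, with Trp53inp1 at 2.71 and Zfp365 at -9.03.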

How the data were processed

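Whole brains and livers were profiled by rRNA-depleted RNA sequencing. The authors trimmed reads with Trimmomatic, aligned them to GRCm38 with STAR and quantified genes with RSEM (versions and strand setting not given in the sources used here). The deposited values are whole-number counts per gene. How RSEM's estimates became whole was not stated. Libraries held 6879726 to 12744415 counts, so that 1 CPM was about 10 reads.

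Of 54446 identifiers 54409 matched GENCODE vM21. Counts were filtered (filterByExpr), TMM-scaled and tested with edgeR 4.0.16 (quasi-likelihood, Benjamini-Hochberg over all genes, threshold 0.05) in R 4.3.3, with all 4 brain groups in one fit, liver alone, and 26-month CD livers with brains. SE is the difference over the square root of F. CPM uses the TMM totals of the tissue. Replicates are separate mice by the study's methods. Alternatives used DESeq2 1.42.0, limma 3.58.1, other scalings and filters, a receptor-gene covariate, a replicate block and left-out libraries.

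The family and the lists were proposed with earlier results of these data known, although the naming rule itself reads no values. Named with values were members called, Tnf, Tnfrsf1a, Tnfrsf1b, Fas, Tnfrsf10b, Eda2r, Cd40 and Tnfsf10, the 5 of smallest p in each direction, the 5 of highest CPM per kb in each tissue, and from each list the genes called and the 2 of smallest p. Between tissues, where most list genes were called, they are given by counts. Other members were named after their values were seen. Of the list genes so chosen, 1 is not reported here.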

Additional observations from a re-analysis of the deposited data

Results flagged for a closer look

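In 8 of the 99 gene and group pairs looked at, a single library lay far from the rest of its group. The limit used is meant to flag about 1 in 20 groups by chance when values are normally spread and independent. CPM of several genes in the same libraries need not meet that, and no cause was tested. In KD livers replicate 12 was highest for Tnf (20.7 CPM, next 3.47), Relt (5.98 CPM, next 2.93) and Tnfsf10 (49.0 CPM, next 25.9). In CD livers replicate 6 was highest for Tnf (48.4 CPM, next 19.6) and replicate 3 for Ltbr (114.6 CPM, next 93.7). In brains, Tnfsf13 was highest in 26-month KD replicate 14 (2.13 CPM, next 1.22), Tnfrsf10b in 26-month CD replicate 5 (3.37 CPM, next 2.03), and Eda2r was lowest in 12-month KD replicate 11 (0.487 CPM, next 1.17).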

How the results depend on the processing

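Of the values of named members under single alternatives, 899 kept their direction and side of the threshold, 28 turned, 13 lost their call and 2 gained one. With age the 2 calls became 0 at a minimum of 10 counts, 1 with limma, 1 without a filter, 0 with the receptor-gene covariate, 0 with the replicate block, 0 in the groups alone, 1 without the Gm10800-high brains and 3 with DESeq2, and 0 to 3 with 1 library left out. Fas had 1.04 (adjusted p = 0.155) with limma, 1.41 (0.0734) without a filter and 1.29 (0.339) with the replicate block. The 23 calls between tissues became 13 at a minimum of 10 counts. With the replicate block they were 20, without Tnfrsf10b, Tnfrsf11a and Tnfrsf9. Whether equal numbers mean the same mouse is not known. Same-numbered deviations correlated at 0.217, -0.249 and -0.094 between ages and at -0.033 to 0.091 between tissues, where 3 of 8 matched best.

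Turned in liver: Cd40 (0.31), Eda2r (0.0390) and Tnfrsf10b (0.93) with limma, Eda2r (0.28) and Tnfrsf8 (-0.22) with the covariate, and Eda2r (0.18), Tnfrsf25 (-0.25) and Tnfsf8 (-0.0885) without Gm10800-high livers. Without the 4 CD livers under 2% mitochondrial counts Cd40 (1.59), Eda2r (1.05), Relt (1.05), Tnf (1.57), Tnfrsf10b (1.49), Tnfrsf11a (0.92), Tnfrsf1a (0.12), Tnfrsf1b (0.14), Tnfrsf21 (0.54) and Tnfrsf23 (0.65) turned. Each was higher in those 4 than in the other CD livers, so that leaving them out raises its difference by construction. Turned in brain: Eda2r (-0.0197, limma) and Tnfrsf1b (0.00027, total counts) after 1 week, Tnfrsf19 (0.0822) with age under the replicate block, Eda2r (-0.0930), Tnfrsf12a (-0.00806), Tnfrsf1a (0.0424) and Tnfsf10 (0.10) with limma, Eda2r with the covariate (-0.0103) and without Gm10800-high brains (-0.0272) after a year, and Tnfsf13 (-0.0297, limma) in the interaction. With 1 library left out the sign changed for Eda2r (liver -0.23 to 0.17, 1 week -0.0508 to 0.23, year -0.0743 to 0.15, interaction -0.18 to 0.10), Tnfrsf10b (liver -0.26 to 0.12, year -0.23 to 0.0255), Tnfsf10 (liver -0.0116 to 0.27, year -0.17 to 0.0169) and Tnfrsf1b (1 week -0.10 to 0.12). The causes were not tested beyond fewer genes or libraries entering.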
